A study of Homo sapiens with 4 samples.

Results

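Small nucleolar RNA host genes are the genes whose introns carry snoRNAs. The 32 examined here are a given list of 26 noncoding hosts (the numbered SNHG genes, GAS5, ZFAS1 and EPB41L4A-AS1) and 6 protein-coding hosts (NCL, NOP56, NOP58, DKC1, TAF1D and EIF4A2), out of 17157 genes with reads across at least 1 annotated intron. They were followed in RNA bound to chromatin from K562, a human erythroleukemia cell line, in 2 wild-type (WT) libraries and 2 libraries of genotype SF3B1 K700E, a recurrent substitution in the U2 snRNP subunit that helps place the 3′ splice site. For all 4 samples the labels give doxycycline at 1 µg/ml to induce the modified allele and harvest after 4 days. They do not say separately whether WT cells carried an inducible allele, whether the cells are 1 clone, or whether replicates came from different cultures. The p-values therefore measure the spread between these 4 libraries alone, and that spread may be technical. Chromatin was isolated in buffers with 25 µM α-amanitin, and polyadenylated and ribosomal RNA were removed, so the reads are enriched for nascent transcripts. The deposited files count reads over splice junctions. Unspliced RNA and the snoRNAs themselves were not analysed here, and every value below is a measure of spliced host RNA.

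A snoRNA is excised with its host intron, freed from the debranched lariat and trimmed at both ends. Box C/D snoRNAs guide 2′-O-methylation and box H/ACA snoRNAs guide pseudouridylation, mainly of ribosomal RNA, while scaRNAs act on spliceosomal RNAs in Cajal bodies. In the noncoding hosts the intron is the conserved product, and the spliced exons of many of them are degraded in the cytoplasm by nonsense-mediated decay. The small RNA is made from the intron, so which splice sites bound that intron is part of how each snoRNA is processed.

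Uniquely mapped junction reads numbered 3582592 and 3687513 in the WT libraries, and 4304213 and 5322414 in those of SF3B1 K700E. In such bulk RNA, fewer cells expressing a gene and less RNA per cell cannot be told apart. Spliced SF3B1 itself was at 956 ± 84.2 CPM (counts of junction reads scaled to the library's TMM-adjusted total) in WT and 774 ± 101 in SF3B1 K700E (mean ± SD, n = 2 each), a log2 change of -0.31 that did not pass (edgeR adjusted p 0.747), and junction counts hold no base calls from which to read the allele. The labels call the cells immortalized epithelial. The 12 erythroid markers summed to 2156 to 3123 CPM, mostly TFRC and ANK1, with GATA1 at 79.2 to 152 CPM. The fetal globin gene HBG1 was at 23.2 to 42.4 CPM, while HBG2, HBA1 and HBA2 were near 0. Only uniquely mapped reads were counted, so values of genes with close copies may be too low. The 10 epithelial markers summed to 348 to 483 CPM, nearly all KRT8, KRT18 and KRT19, with EPCAM at 12.3 to 16.7 CPM and CDH1, KRT5, KRT7 and ESRP1 without a read. The lymphoid sum was at most 3.31 CPM and the myeloid sum at most 0.505.

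Release 29 of the GENCODE annotation places 160 snoRNA and scaRNA genes inside introns of 31 of the 32 hosts, 80 of them in SNHG14 alone. The exception is GAS5, whose snoRNAs are listed by RefSeq (11 names, among them SNORD44, SNORD47 and SNORD74 to SNORD81) but not by release 29. The sequences below are those whose introns carry the main splicing results or the most reads. They come from the GENCODE 29 transcripts, 5′ to 3′ on the strand of the gene in GRCh38. Capitals mark TGATGA (box C) and CTGA (box D), or the ACA of a box H/ACA RNA.
SNORD49B, in SNHG29, chr17:16439505-16439576, plus strand: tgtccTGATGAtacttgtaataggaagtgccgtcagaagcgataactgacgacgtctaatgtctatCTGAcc
SNORD49A, in SNHG29, chr17:16440036-16440106, plus strand: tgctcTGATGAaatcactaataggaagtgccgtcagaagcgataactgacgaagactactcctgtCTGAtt
SNORD65, in SNHG29, chr17:16441226-16441298, plus strand: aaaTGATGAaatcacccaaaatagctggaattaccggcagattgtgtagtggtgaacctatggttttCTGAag
SNORD30, in SNHG1, chr11:62853663-62853732, minus strand: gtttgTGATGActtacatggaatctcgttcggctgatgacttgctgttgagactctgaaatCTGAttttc
SNORD82, in NCL, chr2:231460371-231460440, minus strand: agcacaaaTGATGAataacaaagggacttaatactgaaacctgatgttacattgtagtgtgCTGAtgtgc
SNORD52, in SNHG32, chr6:31837076-31837142, plus strand: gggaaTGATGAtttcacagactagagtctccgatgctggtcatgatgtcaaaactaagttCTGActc
SNORD116-15, in SNHG14, chr15:25081287-25081378, plus strand: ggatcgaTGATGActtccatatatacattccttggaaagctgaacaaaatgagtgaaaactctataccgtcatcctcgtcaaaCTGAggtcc
SNORA63, in EIF4A2, chr3:186787300-186787431, plus strand: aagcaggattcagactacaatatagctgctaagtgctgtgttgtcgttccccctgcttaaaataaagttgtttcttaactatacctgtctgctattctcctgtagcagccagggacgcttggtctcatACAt
SCARNA15, in SNHG21, chr15:82755945-82756071, plus strand: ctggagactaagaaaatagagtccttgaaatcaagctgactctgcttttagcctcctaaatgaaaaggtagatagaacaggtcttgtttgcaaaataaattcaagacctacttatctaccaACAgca
SNORD49A and SNORD49B share their central stretch and lie in the same host. They are in neighbouring introns or together in 1 longer intron, the form with the most reads from its donor. Searched on the RNA strand only, TGATGA within the first 20 bases together with CTGA beginning within the last 20 occurred in 96 of the 160 (60%), and ACA within the last 8 bases, where those boxes were not found, in 36 (22.5%). Among the 843 other annotated snoRNAs and scaRNAs the same searches matched 15.1% and 41.4%. The repeats of SNHG14 carried much of the first share, with both boxes in 69 of 80. Of the 80 in other hosts both boxes were found in 27 (33.8%) and the ACA in 36 (45%). The hosted set ran from 59 to 275 bases with a median of 85.

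Reads over the introns of the host genes numbered 51850 at 604 junctions, 369 of them annotated. No host gene passed the test between genotypes. A filter on low counts kept 25 of the 32, namely 19 noncoding and all 6 protein-coding. Of these, 0 were called by edgeR's quasi-likelihood test at an adjusted p under 0.05, and 0 had an unadjusted p under 0.05. DESeq2 also called 0 and also had 0 with an unadjusted p under 0.05. Over all 10827 genes tested, edgeR called 101 (0.933%), and 10.1% had an unadjusted p under 0.05. The count of 101 became 274 or 317 when WT replicate 1 or 2 was left out. Leaving out SF3B1 K700E replicate 1 gave 310, and leaving out replicate 2 gave 0. The smallest adjusted p of a host gene was 0.623.

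The log2 changes of the 25 ran from -0.52 to 0.85, with 19 positive and 6 negative. Their median was 0.15, beside 0.004 over all genes, whose quartiles lay at -0.27 and 0.24. The median was 0.10 for the noncoding and 0.27 for the protein-coding hosts. Both SF3B1 K700E libraries were above both WT libraries in 6 hosts (SNHG4, SNHG21, TAF1D, NCL, NOP58 and EIF4A2), against 19.4% of all genes, and below both in 1 (SNHG7), against 20.1%.

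**Figure D1:**
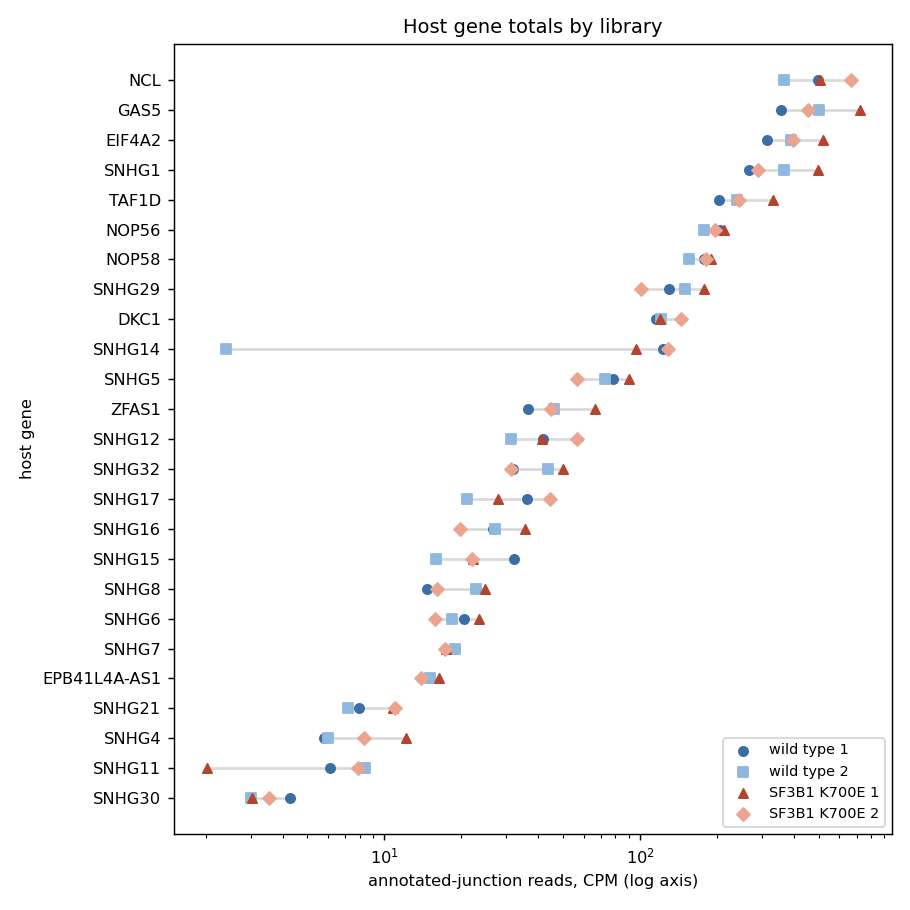
Annotated-junction reads in CPM (log axis) for the 25 host genes tested, 1 row a gene, ordered by mean, with a point for each library. SNHG14 in WT replicate 2 (2.41 CPM) stands apart from its other 3 libraries (95.9 to 128 CPM), and in 18 of the 25 rows the genotypes overlap.

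**Figure D2:**
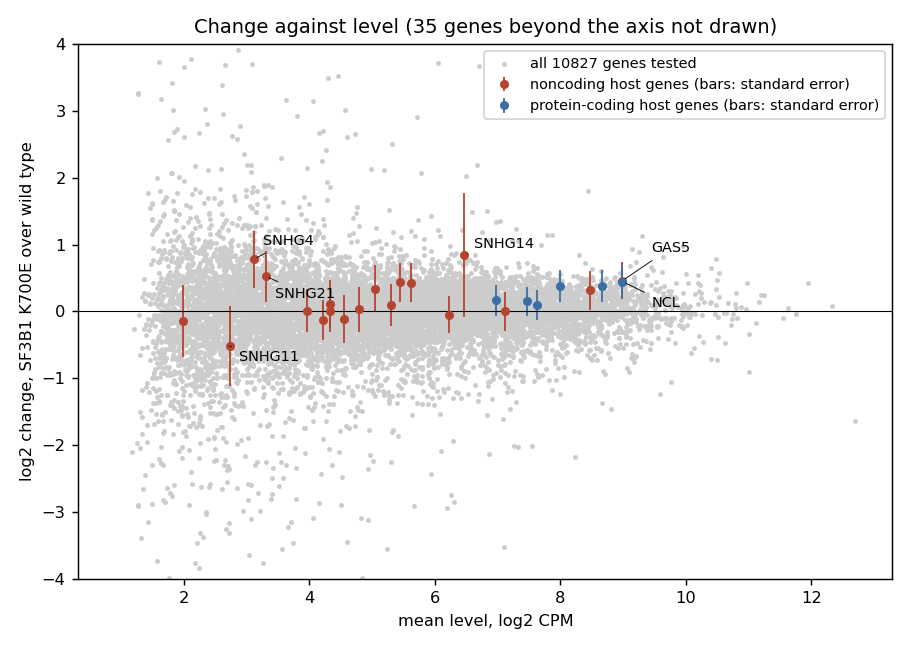
Log2 change of SF3B1 K700E over WT against mean level (log2 CPM) for all 10827 genes (grey) and the 25 host genes, with standard errors as bars. The host genes lie between -0.52 and 0.85, inside the grey cloud.

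GAS5, a growth-arrest transcript and one of the best known snoRNA hosts, was the most abundant noncoding host. The gene (ENSG00000234741.7, chr1:173863900-173868882 in GRCh38) measured 356 and 498 CPM in WT and 721 and 452 CPM in SF3B1 K700E. The first SF3B1 K700E library was high, the other lay below the second WT library, and the genotypes overlapped. The log2 change of 0.46 ± 0.28 (standard error) did not pass (edgeR adjusted p 0.679). It was 0.09 without SF3B1 K700E replicate 1 and 0.24 without WT replicate 1, and 0.74 and 0.77 without the second library of each genotype.

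SNHG1 (ENSG00000255717.6, chr11:62851988-62855914), whose introns hold SNORD22, SNORD30 and SNORD25 to SNORD28, measured 265 and 364 CPM in WT and 495 and 287 CPM in SF3B1 K700E. It showed the same order of libraries as GAS5. The log2 change of 0.31 ± 0.29 (edgeR adjusted p 0.830) turned to -0.12 without SF3B1 K700E replicate 1. SNHG29 (ENSG00000175061.17, chr17:16438822-16478678), the host of SNORD49A, SNORD49B and SNORD65, measured 129 and 149 CPM in WT and 178 and 100 CPM in SF3B1 K700E. Its SF3B1 K700E libraries were the highest and the lowest of the 4, and the group means were both 139 CPM.

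Among noncoding hosts this split within SF3B1 K700E was common. Replicate 1 was above replicate 2 in 13 of the 19 tested, with a median log2 ratio of 0.49, while over all genes 50.3% were higher in replicate 1 and the median ratio was 0.01. In WT, replicate 2 was above replicate 1 in 10 of the 19, with a median log2 ratio of 0.01. Hosts that were high in both WT replicate 2 and SF3B1 K700E replicate 1 numbered 9 of 19, beside 31.3% of all genes. This comparison was chosen after the values were seen. The summed level of the 26 noncoding hosts was 1252 and 1374 CPM in WT and 1937 and 1342 CPM in SF3B1 K700E. The erythroid marker sum was 2683 and 2876 CPM in WT and 2156 and 3123 CPM in SF3B1 K700E. It was lowest in the library where the noncoding hosts were highest, but not highest in WT replicate 1, where they were lowest. Its part in the host values was not tested.

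SNHG4, the host of SNORA74A, had the lowest p of the list. It measured 5.81 and 6.01 CPM in WT and 12.1 and 8.32 CPM in SF3B1 K700E, without overlap, and its log2 change of 0.78 ± 0.42 did not pass (unadjusted p 0.0954, edgeR adjusted p 0.623). Of its 574 annotated reads, 436 were over introns also annotated to MATR3, the overlapping nuclear matrix gene, and were not counted. With those reads added, an alternative chosen after seeing the data, SNHG4 measured 26 and 25.9 CPM in WT and 59.5 and 32.4 CPM in SF3B1 K700E. The log2 change was then 0.82 ± 0.33 (unadjusted p 0.0325, edgeR adjusted p 0.415). Reads of SNHG4 and MATR3 cannot be told apart in these introns.

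SNHG21, which carries SCARNA15, measured 7.95 and 7.22 CPM in WT and 10.8 and 11 CPM in SF3B1 K700E. The groups did not overlap, and the log2 change of 0.53 ± 0.38 did not pass (edgeR adjusted p 0.747). SNHG7, with SNORA17A and SNORA17B, was the only host lower in both SF3B1 K700E libraries, at 18.9 CPM in each WT library and 17.4 and 17.3 CPM in SF3B1 K700E. Its log2 change was -0.13 (edgeR adjusted p 0.960).

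The other hosts with negative values overlapped between genotypes. SNHG11 had the most negative log2 change, -0.52 ± 0.60, from 6.11 and 8.42 CPM in WT and 2.02 and 7.90 CPM in SF3B1 K700E. Only the first SF3B1 K700E library was low, and without it the value was 0.13. SNHG15 stood at 32.1 and 15.9 CPM in WT and 22.2 and 22 CPM in SF3B1 K700E, so both mutant libraries lay between the WT libraries. SNHG30, at 4.28 and 3.01 CPM against 3.03 and 3.54 CPM, gave -0.14. Without WT replicate 1 the value was 0.47 for SNHG15 and 0.13 for SNHG30.

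The remaining noncoding hosts tested were SNHG5, SNHG6, SNHG8, SNHG12, SNHG16, SNHG17, SNHG32, ZFAS1 and EPB41L4A-AS1. Their log2 changes ran from -0.05 in SNHG5 to 0.43 in SNHG12 and ZFAS1, and the genotypes overlapped in every one. SNHG5, a SNORD50 host, had the highest level of these, at 77.9 and 73.1 CPM in WT and 90.1 and 56.4 CPM in SF3B1 K700E. ZFAS1, which carries the SNORD12 family, measured 36.4 and 46.0 CPM in WT and 66.6 and 44.7 CPM in SF3B1 K700E. Of the 1571 annotated reads of SNHG32, 975 were over introns also annotated to AL671762.1 and were not counted. With those reads added, SNHG32 measured 92.6 and 126 CPM in WT and 116 and 81.3 CPM in SF3B1 K700E. Its log2 change was then -0.15 ± 0.27 (edgeR adjusted p 0.937), against 0.10 without them. That alternative was also chosen after seeing the data.

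The 7 hosts not tested had few reads of their own. SNHG22 had none, which allows up to 0.917 and 0.902 CPM in the WT libraries and 0.757 and 0.624 CPM in the SF3B1 K700E libraries, for counting error only. SNHG9, SNHG10, SNHG19 and SNHG25 had 8, 20, 18 and 5 reads over the 4 libraries. All 620 reads of SNHG3, the host of SNORA73A and SNORA73B, were over introns also annotated to RCC1, and 276 of the 291 of SNHG20 were shared with SEC14L1. With shared introns counted, SNHG3 measured 17.4 and 39.7 CPM in WT and 66.1 and 35.1 CPM in SF3B1 K700E, again highest in the first SF3B1 K700E library, with a log2 change of 0.82 ± 0.42 (edgeR adjusted p 0.575). SNHG20 measured 19.6 and 18.3 CPM against 17.7 and 19.3 CPM, a log2 change of -0.03.

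SNHG14 had the largest log2 change of the list and the widest spread. The gene (ENSG00000224078.13, chr15:24978583-25419462) is the long noncoding transcript of the imprinted Prader-Willi region, expressed from the paternal allele, and it carries the SNORD116 and SNORD115 clusters. It measured 122 and 2.41 CPM in WT and 95.9 and 128 CPM in SF3B1 K700E, so that 1 WT library was far below the other 3. The log2 change was 0.85 ± 0.93 (edgeR adjusted p 0.871). It was -0.10 without WT replicate 2 (edgeR adjusted p 0.968) and 5.52 without WT replicate 1 (edgeR adjusted p 5.7e-19), the only call of a host gene in any setting run.

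WT replicate 2 had few SNHG14 reads anywhere in the gene. Reads of any annotated SNHG14 intron were found at 61 introns in WT replicate 1, 5 in WT replicate 2, and 50 and 60 in SF3B1 K700E. At 2 introns near the 5′ end, with no annotated snoRNA, WT replicate 2 had more reads than WT replicate 1, and these introns held 5 of its 8 reads. The most used intron, which holds SNORD116-15, had 21 reads in WT replicate 1, 0 in WT replicate 2, and 21 and 36 in SF3B1 K700E. Introns that hold 1 or more of the 29 SNORD116 copies had 896 of the 1453 annotated reads, each intron counted once. Introns that hold any of the 47 SNORD115 copies had 12. Reads that map to several copies of a repeat were not counted, so these counts do not compare transcription of the clusters. SNRPN, the snRNP gene at the head of the same imprinted domain, had 31 reads in WT replicate 1, 0 in WT replicate 2, and 32 and 61 in SF3B1 K700E. UBE3A, the ubiquitin ligase gene that SNHG14 overlaps on the opposite strand, had 194, 305, 320 and 356. Other hosts tested were not low in WT replicate 2 as SNHG14 was, where the log2 ratio to WT replicate 1 was -5.18. The next lowest of the tested hosts, in SNHG15, was -0.97.

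**Figure D3:**
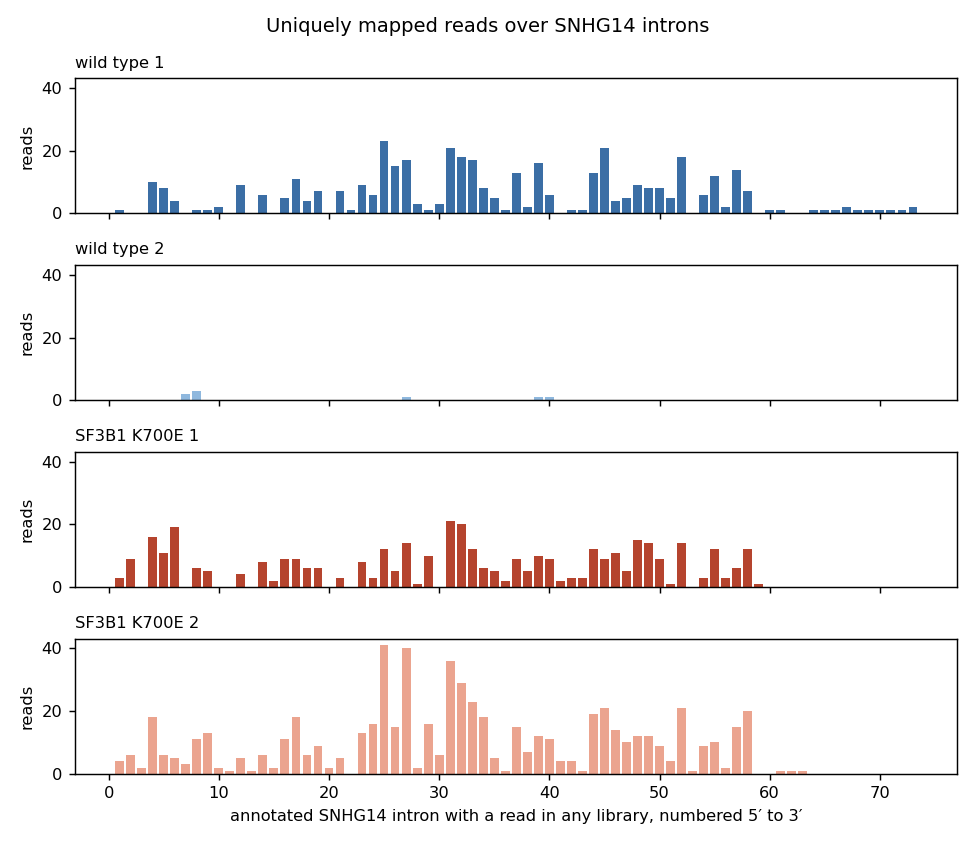
Uniquely mapped reads over each annotated SNHG14 intron with a read in any library, numbered 5′ to 3′, in 4 panels of the same scale. WT replicate 2 has reads at 5 introns and the other libraries at 50 to 61.

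The protein-coding hosts were higher in SF3B1 K700E in sum, at 1511 and 1443 CPM in WT and 1870 and 1829 CPM in SF3B1 K700E, and none passed. NCL encodes nucleolin, which takes part in ribosomal RNA transcription and processing, and carries SNORD20, SNORD82 and SNORA75. The gene (ENSG00000115053.15, chr2:231453531-231483641) measured 496 and 364 CPM in WT and 505 and 667 CPM in SF3B1 K700E. The groups were separated only by the narrow step from 496 to 505, and the log2 change was 0.45 ± 0.25 (edgeR adjusted p 0.630). It ran from 0.25 without SF3B1 K700E replicate 2 to 0.69 without WT replicate 1.

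EIF4A2, a translation initiation helicase gene with 5 snoRNAs in its introns (ENSG00000156976.16, chr3:186783205-186789900), measured 314 and 388 CPM in WT and 517 and 396 CPM in SF3B1 K700E. TAF1D, a subunit gene of the RNA polymerase I factor SL1 with 8 snoRNAs, measured 203 and 239 CPM in WT and 329 and 244 CPM in SF3B1 K700E. In both the second SF3B1 K700E library was barely above the higher WT library. Their log2 changes were 0.38 ± 0.24 and 0.37 ± 0.24, with edgeR adjusted p of 0.689 and 0.695. Without SF3B1 K700E replicate 1 the values were 0.18 for EIF4A2 and 0.15 for TAF1D, and without replicate 2 they were 0.57 and 0.59.

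NOP56, NOP58 and DKC1 encode core proteins of the snoRNPs themselves. NOP56, a box C/D core protein gene, measured 205 and 177 CPM in WT and 212 and 196 CPM in SF3B1 K700E. NOP58, its partner in the same particle, measured 178 and 155 CPM in WT and 188 and 181 CPM in SF3B1 K700E. DKC1, the pseudouridine synthase gene of box H/ACA particles, measured 115 and 120 CPM in WT and 120 and 144 CPM in SF3B1 K700E. Log2 changes of these genes were 0.10, 0.15 and 0.16, each below its standard error of 0.22 or 0.23.

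Levels of different hosts were compared per intron, as the mean CPM of the annotated introns with at least 10 reads. On that scale NCL (39.0) and GAS5 (38.9) led, followed by EIF4A2 (25.2), SNHG1 (23.5), SNHG3 (19.8, shared with RCC1), TAF1D (14.9), SNHG32 (14.8), NOP56 (13.1), SNHG29 (12.5) and SNHG5 (10.5). The value of SNHG32 includes introns shared with AL671762.1. SNHG14 was at 2.06, near the foot of the order. NCL ranged from 27.8 to 51.2 and GAS5 from 27.3 to 55.4 over the libraries, so their order was not resolved.

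Along GAS5, reads were unevenly spread. The intron with the most, chr1:173866207-173866527, had 68.5 and 90.2 CPM in WT and 131 and 92.1 CPM in SF3B1 K700E, while the last intron, chr1:173864076-173864256, had 10.1 and 14.7 CPM in WT and 22.7 and 11.9 CPM in SF3B1 K700E. In SNHG1 the intron of SNORD30, printed above, had 42.2, 58.3, 75.9 and 43.0 CPM in the order WT 1, WT 2, SF3B1 K700E 1 and SF3B1 K700E 2. The first intron, around SNORD25, had 2.14, 1.20, 5.55 and 3.95 CPM. Replicate 1 of SF3B1 K700E was the highest library at every GAS5 intron with at least 10 reads and at most of those of SNHG1.

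**Figure D4:**
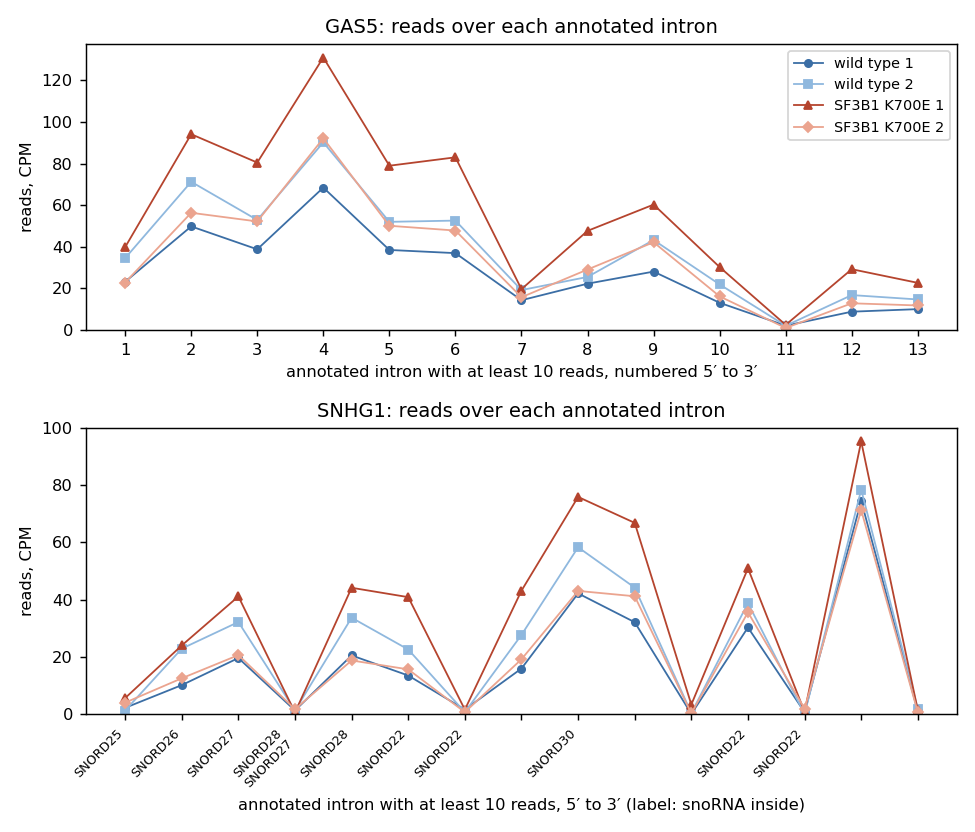
Reads (CPM) over each annotated intron with at least 10 reads, 5′ to 3′, for GAS5 (top) and SNHG1 (bottom), with a line for each library. The first SF3B1 K700E library is highest at every GAS5 intron and at most SNHG1 introns, with the GAS5 maximum of 131 CPM at the fourth.

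Reads over introns that hold a snoRNA were 44.1% and 46.9% of the annotated reads of the 31 hosts with an annotated snoRNA in WT, against 47.5% and 43.3%. Counting gave 95% Wilson intervals of 43.1 to 45.2%, 45.8 to 48.0%, 46.6 to 48.4% and 42.4 to 44.1%, which cover counting error only. Group means were 45.5 ± 1.96% and 45.4 ± 2.99% (SD, n = 2), so the genotypes differed by less than the spread between replicates. The share was 54.8 to 58.7% in noncoding and 35.8 to 40.1% in protein-coding hosts over the libraries.

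Splice site choice was compared at donors joined to at least 2 acceptors and at acceptors joined to at least 2 donors. The share of a junction is its part of all reads at the shared site. In acceptor choice, 79 host junctions in 19 hosts were tested and edgeR called 0, with 3 at an unadjusted p under 0.05. Limma with voom also called 0, with 2 at that level. Over all 23366 junctions tested, edgeR called 32 (0.137%), and 3.17% had an unadjusted p under 0.05. The count of 32 was 12 without either WT library, and 6 or 5 when replicate 1 or 2 of SF3B1 K700E was left out. In donor choice, 85 host junctions in 20 hosts were tested and edgeR called 0, with 1 at an unadjusted p under 0.05, and limma with voom called 0, with 2 at that level. Over all 22976 junctions tested edgeR called 2 (0.0087%), a count that was 0 without any 1 of the 4 libraries, and 2.18% had an unadjusted p under 0.05.

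The host junction with the lowest p was an acceptor pair in EIF4A2. The intron that holds SNORA63 ends either at chr3:186787494, used by nearly all reads, or 16 nt upstream at 186787478, which the annotation also lists. The sequence of GRCh38 plus strand around them, from a GENCODE 29 transcript that retains the intron, is shown with both AG dinucleotides in capitals.
EIF4A2 acceptors, chr3:186787420-186787519: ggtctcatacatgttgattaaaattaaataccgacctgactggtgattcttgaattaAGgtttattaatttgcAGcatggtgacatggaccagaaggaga
The upstream acceptor took 1 of 196 and 2 of 200 reads in WT and 16 of 340 and 12 of 321 in SF3B1 K700E. Both SF3B1 K700E libraries were above both WT libraries, at 4.71% and 3.74% against 0.510% and 1.00%. Group means were 0.755 ± 0.346% and 4.22 ± 0.684% (SD, n = 2), with an unadjusted p of 0.00547 and an edgeR adjusted p of 0.655.

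SNHG29 had a second pair of this kind, at the end of the SNORD65 intron. The upper acceptor, 11 nt before the annotated one, is not in the annotation.
SNHG29 acceptors, chr17:16441293-16441392, plus strand, AG of both in capitals: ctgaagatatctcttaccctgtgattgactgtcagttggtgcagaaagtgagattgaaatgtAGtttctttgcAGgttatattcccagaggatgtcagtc
It had 0 of 50 and 0 of 66 reads in WT and 4 of 136 and 4 of 94 in SF3B1 K700E, that is 2.94% and 4.26%. A count of 0 allows up to 6% and 4.55% in the WT libraries, so the difference was not detectable at this depth. It had too few reads for the test.

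In all, 17 junctions of 10 hosts used an acceptor 10 to 30 nt upstream of a more used annotated acceptor of the same donor. A read in any library put a junction in this set, and 11 of the 17 had reads in SF3B1 K700E only. Host junction reads numbered 9559 and 9997 in WT and 16135 and 16159 in SF3B1 K700E, so entry was easier through SF3B1 K700E. The 17 junctions had 10 and 12 reads in WT and 45 and 39 in SF3B1 K700E. That is 0.105% and 0.120% of host junction reads against 0.279% and 0.241%. Without the EIF4A2 junction the shares were 0.0942% and 0.100% against 0.180% and 0.167%. The 12 unannotated junctions among the 17 had 1 and 3 reads in WT and 17 and 16 in SF3B1 K700E. None of the 12 reached 10 reads over the 4 libraries. The 12 included an acceptor of NOP58, 21 nt upstream, with 5 reads from 1 donor and 3 from another, all in SF3B1 K700E. Not every junction of the 17 had a higher share in SF3B1 K700E. The annotated acceptor 22 nt upstream in the SNORA18 intron of TAF1D took 14.3% and 11.7% of its donor's reads in WT and 3.26% and 6.59% in SF3B1 K700E (unadjusted p 0.0940, edgeR adjusted p 1.00). In SNHG14, such an acceptor in the SNORD116-16 intron had 0 of 18 reads in WT replicate 1, none at the site in WT replicate 2, and 3 of 23 and 4 of 33 in SF3B1 K700E. The 0 allows up to 16.7%. The summed shares were described and not tested. Neither these shares nor the part of junctions with reads in SF3B1 K700E only was computed over all genes.

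SNHG29 also had the acceptor junction with the second lowest p, in the intron of SNORD49B. From its donor at chr17:16439415 the intron ends at 16439527, 16439580, 16439659 or 16440184, and the longest form spans both SNORD49B and SNORD49A. The acceptor at 16439659 is printed with its AG in capitals.
SNHG29 acceptor, chr17:16439585-16439684, plus strand: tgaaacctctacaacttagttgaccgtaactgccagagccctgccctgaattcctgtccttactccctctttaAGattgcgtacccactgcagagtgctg
It took 14.3% and 11.5% of the donor's reads in WT (21 of 147 and 21 of 183) and 3.82% and 6% in SF3B1 K700E (10 of 262 and 9 of 150). The groups did not overlap, with means of 12.9 ± 1.99% and 4.91 ± 1.54% (SD, n = 2), an unadjusted p of 0.00941 and an edgeR adjusted p of 0.816. The longest form took 66.7% and 71.0% in WT and 84.0% and 79.3% in SF3B1 K700E, also without overlap (edgeR adjusted p 1.00). The acceptor at 16439580 took 15.0% and 13.7% against 7.63% and 10.7%, and that at 16439527 lay between 3.83% and 4.58% in all libraries.

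SNHG32, the host of SNORD48 and SNORD52, gave the 1 donor result with an unadjusted p under 0.05. At the acceptor chr6:31837235, the donor at 31836518 took 11 of 62 and 4 of 87 reads in WT and 30 of 108 and 18 of 78 in SF3B1 K700E. The shares were 17.7% and 4.60% against 27.8% and 23.1%, and the groups did not overlap (unadjusted p 0.0321, edgeR adjusted p 1.00). The difference of 14.3 percentage points was 7.69 without WT replicate 2. Reads from the other donor, 31835452, skip the exon before 31836518, and SNORD52 lies inside both introns. That longer intron is shared with AL671762.1. In SNHG21 an exon choice around SCARNA15, named after its values were seen, ran the other way. Skipping was the lower share in SF3B1 K700E in SNHG32 and the higher in SNHG21. From the donor at chr15:82754785, the junction to 82756903, which skips an exon, took 1 of 11 and 2 of 8 reads in WT and 10 of 19 and 14 of 28 in SF3B1 K700E. The unadjusted p was 0.0618 and the edgeR adjusted p 1.00. The remaining junction with an unadjusted p under 0.05 was in SNHG1, chr11:62852994-62853074, with 13 of its 15 reads in the first SF3B1 K700E library.

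**Figure D5:**
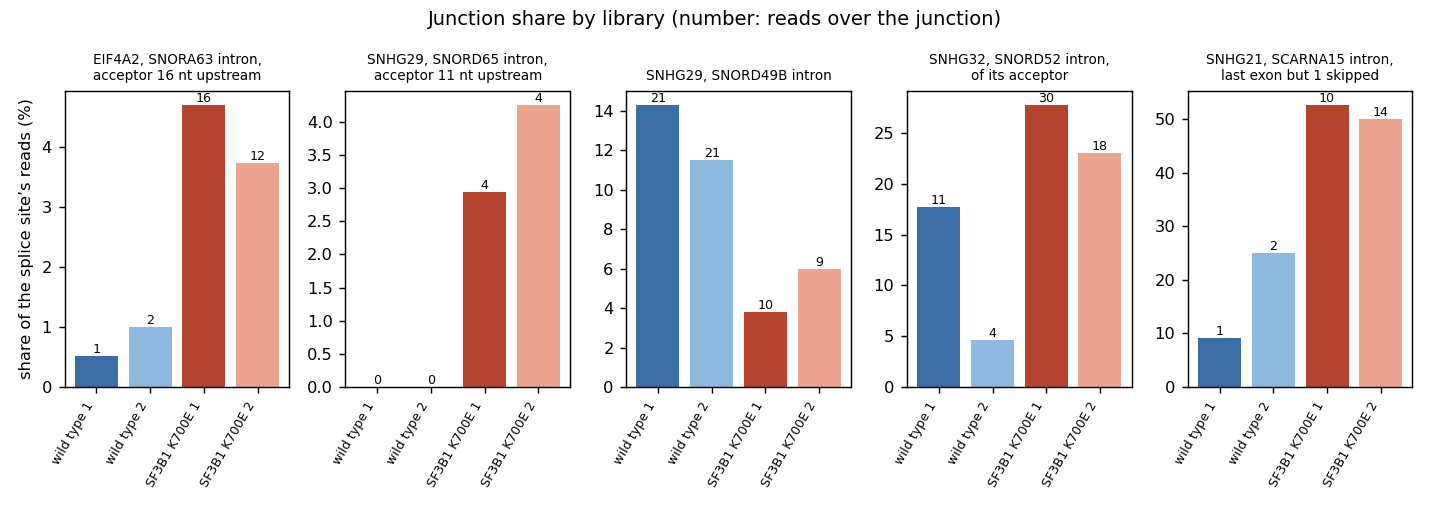
Share (%) of the reads at a splice site that used the named junction, in each library, with the reads over that junction above the bars. The EIF4A2 upstream acceptor is at 0.510 and 1.00% in WT and 4.71 and 3.74% in SF3B1 K700E, and the SNHG29 SNORD49B intron is at 14.3 and 11.5% against 3.82 and 6%.

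Unannotated junctions at host splice sites were 235 of the 604, and 125 of them had a single read. They joined an annotated donor to an unannotated acceptor (93), an unannotated donor to an annotated acceptor (79), or 2 annotated sites in an unannotated pairing (63). Their share of host junction reads was 1.31% (Wilson interval 1.10 to 1.56%) and 0.960% (0.787 to 1.17%) in WT. In SF3B1 K700E it was 1.45% (1.28 to 1.65%) and 1.69% (1.5 to 1.9%). Group means were 1.13 ± 0.246% and 1.57 ± 0.169% (SD, n = 2). The groups did not overlap over all hosts, but in the noncoding hosts they did, at 1.66% and 0.797% in WT against 1.41% and 2.03%. The difference of 0.436 percentage points was 0.193 for junctions with at least 10 reads and 0.262 without WT replicate 2. With each host weighted equally the difference changed sign, to -0.10 percentage points. Over all junctions, the unannotated share was 4.54% and 4.49% in WT and 4.98% and 4.66% in SF3B1 K700E. SNHG14 had the highest unannotated share of the hosts with over 100 reads, 11.2%, while SNHG5, SNHG32 and GAS5 had 0.177%, 0.191% and 0.355%.

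Only 14 unannotated junctions had at least 10 reads over the libraries. A pair of them in EIF4A2 bounds an exon of 48 bases, chr3:186786418-186786465, that is not in the annotation and overlaps SNORA63B (chr3:186786323-186786445) by 28 bases. The exon is in capitals in the plus strand sequence from the same retained-intron annotation.
EIF4A2 exon, chr3:186786358-186786485: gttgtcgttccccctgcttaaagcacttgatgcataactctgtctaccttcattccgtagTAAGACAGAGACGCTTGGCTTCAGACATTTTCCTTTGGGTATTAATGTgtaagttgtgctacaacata
The junction into it had 2 and 6 reads in WT and 12 and 11 in SF3B1 K700E, 2.74% and 5.45% of its donor's reads against 6.32% and 6.88% (unadjusted p 0.429). The junction out of it had 2 and 5 reads in WT and 14 and 21 in SF3B1 K700E, 3.28% and 4.17% of its acceptor's reads against 8.33% and 12.4% (unadjusted p 0.0550, edgeR adjusted p 1.00). In NOP56 an unannotated donor joined to chr20:2655933 took 13.3% and 9.30% of the acceptor's reads in WT and 20.0% and 21.1% in SF3B1 K700E (edgeR unadjusted p 0.203). These junctions were picked with their values known, and others of the 14 overlapped between genotypes. The NCL pairing chr2:231455625-231456630 took 3.49% and 4.29% of its donor's reads in WT and 1.30% and 6.11% in SF3B1 K700E. The EIF4A2 pairing chr3:186784697-186786163 took 9.68% and 2.38% in WT and 4.35% and 1.96% in SF3B1 K700E.

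The genes that build snoRNPs were compared as lists chosen with earlier results of these data known. Of 13 box C/D core and assembly genes, all tested, edgeR called 0, the median log2 change was 0.01 beside 0.004 over all genes, and none had an unadjusted p under 0.05. FBL, the methyltransferase fibrillarin, measured 84.4 and 64.9 CPM in WT and 70.4 and 70.7 CPM in SF3B1 K700E. Of 6 box H/ACA genes edgeR called 0 and the median was -0.12. NHP2, a core protein gene of that particle, was the only member with an unadjusted p under 0.05, at 26.9 and 19.2 CPM in WT and 15.4 and 12.3 CPM in SF3B1 K700E (log2 change -0.74 ± 0.33, edgeR adjusted p 0.492).

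Of the genes that release and trim intronic snoRNAs, 15 of 16 could be matched by symbol. EdgeR called 0 of the 15, none had an unadjusted p under 0.05, 13 had positive values and the median log2 change was 0.18. DBR1, the lariat debranching enzyme, measured 5.81 and 8.12 CPM in WT and 11.6 and 6.24 CPM in SF3B1 K700E, which overlap. AQR, the intron-binding helicase, measured 134, 262, 298 and 222 CPM in the order WT 1, WT 2, SF3B1 K700E 1 and SF3B1 K700E 2. Among 10 genes of nonsense-mediated decay edgeR called 0, none had an unadjusted p under 0.05, and the median was -0.01.

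A wider set was the 319 other genes with a snoRNA inside an intron. Of the 202 tested, edgeR called 1 higher and 1 lower, and 11 and 13 had an unadjusted p under 0.05 in those directions, with a median log2 change of 0.05. Called genes were 0.990% of the set and those with an unadjusted p under 0.05 were 11.9%, near the 0.933% and 10.1% of all genes. The called genes, named after their values were seen, were RPL37 and MORC1. RPL37, a large ribosomal subunit protein gene, fell from 218 and 213 CPM in WT to 95.4 and 61.3 CPM in SF3B1 K700E (log2 change -1.46 ± 0.26, edgeR adjusted p 0.0337). MORC1 rose from 1.83 and 7.52 CPM to 34.8 and 26.4 CPM (log2 change 2.7 ± 0.51, edgeR adjusted p 0.0386).

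Many snoRNA hosts are known to begin with a 5′ terminal oligopyrimidine tract, a C followed by pyrimidines at the transcription start. RefSeq promoter sequences (GRCh38.p14) matched 27 of the 32 hosts. CTTT stood exactly at the listed start, read on the transcribed strand only, in 5 of the 27 (18.5%), beside 0.914% of all 35116 promoters. Within the window from 2 bases before the start to 10 after it was in 9 (33.3%), beside 4.89%. The 5 starts are shown with 20 bases on each side and CTTT in capitals.
SNHG5 start, chr6:85678714-85678753, minus strand: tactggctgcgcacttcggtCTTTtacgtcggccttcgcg
SNHG32 start, chr6:31834896-31834935, plus strand: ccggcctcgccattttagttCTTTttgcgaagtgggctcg
SNHG19 start, chr16:2155339-2155378, minus strand: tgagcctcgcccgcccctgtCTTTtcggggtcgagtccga
ZFAS1 start, chr20:49278622-49278661, plus strand: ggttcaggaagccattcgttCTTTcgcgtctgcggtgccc
EIF4A2 start, chr3:186783557-186783596, plus strand: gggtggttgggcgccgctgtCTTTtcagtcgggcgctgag
The match is a description of these letters and was not tested against the expression values. Of the 5, SNHG5 had a log2 change of -0.05, SNHG32 of 0.10, ZFAS1 of 0.43 and EIF4A2 of 0.38, and SNHG19 was too low to test. With shared introns counted, SNHG32 was at -0.15.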

How the data were processed

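Per the labels, 4 K562 libraries of chromatin-bound RNA were made. Per the file headers in the run logs, the authors ran STAR 2.7.10a once per library on paired, trimmed reads. The index was GRCh38.p12 with 353424 junctions of GENCODE 27, and 1887 from GENCODE 22 were added. They deposited counts of uniquely and of multiply mapped reads per junction. Unique counts at sites of the members, matched by Ensembl ID in GENCODE 29, were used. Reads over annotated introns of 1 gene only were summed per gene, filtered with filterByExpr, scaled by TMM and tested over all genes with edgeR 4.0.16 (quasi-likelihood, Benjamini-Hochberg adjustment at 0.05, genotype as the only term, R 4.3.3). Junctions with 10 reads were tested with diffSpliceDGE. A standard error is the log2 change over the root of F. The common biological coefficient of variation was 21.7%. On simulated counts the gene test recovered 97.4% of 4-fold changes with 11 false calls, and the acceptor test 60% of 8-fold changes with 0. The counts were drawn at that common coefficient, and changes were placed only in features above a minimum of reads. Host gene changes were smaller, at most 0.85 in log2, so recovery at their size was not measured. DESeq2 1.42.0, limma 3.58.1, other read rules, a replicate block and leaving out each library were alternatives.

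Described with every library's value were members with p under 0.05, the 8 highest, the 4 largest rises and falls, junctions with p under 0.05 and a share differing by 5 points, and unannotated acceptors 10 to 30 nt upstream with 10 reads. Only the SNHG29 acceptor at 16439659 and the SNHG32 donor at 31836518 met the junction rules. Other junctions, among them the EIF4A2 acceptor pair, the SNHG29 SNORD65 pair and the EIF4A2 exon, were described with their values known. The members and lists were chosen with earlier results of these data known.

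The value of 1 erythroid marker is not reported here.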

Additional observations from a re-analysis of the deposited data

How the results depend on the processing

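The count of 0 host genes called held under DESeq2, library totals without TMM, no filter on low counts, multiply mapped reads, unannotated junctions, the replicate block, the crossed pairing and shared introns, and ran from 0 to 1 when 1 library was left out (the 1 is SNHG14 without WT replicate 1). The counts of 0 host junctions in acceptor and in donor choice held under every alternative run. Over all genes the 101 calls became 217 under DESeq2 and 0 to 317 with 1 library left out. Over all acceptor junctions the 32 calls became 15 with limma and 19 with the replicate block. With that block 136 genes were called, and of host genes 0, host acceptors 0 and host donors 0. The labels do not say what the numbers share, and the differences between replicates correlated at -0.23 across genes, so the crossed pairing was added after seeing the data and called 460 genes and 0 host genes. The difference in unannotated share was -0.0966 percentage points with hosts weighted equally. The log2 change of SNHG29, -0.00068, was 0.0028 under DESeq2, 0.014 without TMM, 0.010 without the filter and 0.0097 with multiply mapped reads. With 1 library left out, log2 changes ran from -0.46 to 0.37 for SNHG29 (0.13 without WT replicate 2), -0.12 to 0.67 for SNHG1, -1.82 to 0.13 for SNHG11, -0.10 to 5.52 for SNHG14, -0.51 to 0.47 for SNHG15 -0.35 to 0.13 for SNHG30, 0.09 to 0.77 for GAS5, 0.18 to 0.57 for EIF4A2, 0.15 to 0.59 for TAF1D, 0.25 to 0.69 for NCL, 0.50 to 1.04 for SNHG4, 0.01 to 0.21 for NOP56 and 0.08 to 0.25 for NOP58. With the replicate block SNHG14 was at 2.07, uncalled. The cause was not tested. Junctions with few reads at their site leave wide limits, as given beside the counts of 0.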
